A study of Homo sapiens with 12 samples.

Results

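Near-identical copies of 5 genes on chromosome 21 were followed through mRNA sequencing of prostate cancer (PCa) cells, by taking the 10 rows U2AF1, U2AF1L5, CBS, CBSL, SIK1, SIK1B, SMIM11A, SMIM11B, GATD3A and GATD3B out of the 60660 gene rows of each library and reading them as 5 pairs. In every pair the gene on the long arm of the chromosome is called the first copy, and the gene on the short arm in the hg38 assembly is called the second copy. Both are established PCa lines: LNCaP, grown from a nodal metastasis, depends on androgen, while 22Rv1 was derived from a xenograft that regrew once the host was castrated. Each line was transfected with NC-mimic, a negative control RNA, or with piR-4447944 mimic, a synthetic form of the PIWI-interacting RNA piR-hsa-4447944, and all 4 groups were androgen-deprived by serum stripped with charcoal (10% CS-FBS). There were 3 libraries in each group and 12 in all, and since the labels do not say whether replicates were separate cultures, the p-values measure only the spread between these libraries. The mimic was transient, and each line is a single cell line, so the line stands for no wider class of tumour.

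The 5 genes do unrelated work. U2AF1 is the small subunit of the U2 auxiliary factor, which recognises the AG at the 3′ splice site of introns. CBS, cystathionine beta-synthase, joins homocysteine to serine at the entry of transsulfuration, and SIK1 is a salt-inducible kinase whose transcription is induced by cAMP signalling and which, when active, holds CRTC coactivators in the cytoplasm. SMIM11 encodes a small integral membrane protein, and GATD3 a mitochondrial protein of the glutamine amidotransferase-like class 1 family, to which the Parkinson disease protein PARK7 is related. Short reads from a stretch that is the same in both copies hold no information on which copy they came from, and RSEM, the program used by the study, divides such reads between the candidates by a model. The question asked of each pair was therefore how its reads were divided, and what the 2 rows gave when added up.

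The copies lay in hg38 at chr21:43092956-43107578 for U2AF1 and chr21:6484623-6499248 for U2AF1L5, both on the minus strand. CBS lay at chr21:43053191-43076873 and CBSL at chr21:6444869-6468621, both on the minus strand. SIK1 lay at chr21:43414483-43427131 on the minus strand and SIK1B at chr21:6111131-6123778 on the plus strand. SMIM11A lay at chr21:34375507-34389151 and SMIM11B at chr21:7744951-7772245, both on the plus strand, and GATD3A lay at chr21:44133683-44145711 on the plus strand and GATD3B at chr21:5116341-5128369 on the minus strand. GENCODE release 44 gives all 5 first copies as protein-coding genes. It gives all 5 second copies the type artifact with the tag artifactual duplication.

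The whole span of the first copy was aligned within the second, and overhanging ends of the second were not counted. The copies were identical at 99.7% of the bases so aligned for U2AF1, 99.9% for CBS, 99.9% for SIK1, 99.96% for SMIM11 and 99.8% for GATD3. For SMIM11 these were 13645 bases, while SMIM11B spans 27295. The U2AF1 value counts 8 bases of the first copy as missing at the edge of the annotated span of U2AF1L5. The aligned spans differed by 18, 20, 11, 1 and 23 substitutions in that order. In the canonical transcript of the first copy, the sites counted as differing were 2 of 945 bases for U2AF1, both in the 5′ untranslated region, and 1 of 2495 for CBS. There were 7 of 4747 for SIK1, 0 of 840 for SMIM11 and 2 of 1584 for GATD3. The first U2AF1 site, base 1, was counted as missing at the edge of the annotated span of U2AF1L5. In hg38 the 300 bases chr21:43107521-43107820 hold both U2AF1 sites and differed from the second copy at 1. Only the substitution at base 12 is thus a difference of sequence. Stretches of 100 bases that were the same in both copies made up 98.6% of all such stretches of the U2AF1 transcript, with base 1 counted as differing. They made up 95.8% for CBS, 88.8% for SIK1, 100% for SMIM11 and 91.1% for GATD3. Over all annotated exons of the first copy, which include longer transcripts, the differing sites were 16 for U2AF1, 6 for CBS, 7 for SIK1, 0 for SMIM11 and 5 for GATD3. The 16 also include base 1.

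The start of the coding sequence of U2AF1 shows this identity in the reference, with the start codon in capitals (chr21:43107471-43107494 and chr21:6499149-6499172 of hg38, minus strand, 5′ to 3′).
U2AF1: ATGgcggagtatctggcctccatc
U2AF1L5: ATGgcggagtatctggcctccatc
The coding sequences of U2AF1 and U2AF1L5, and those of SMIM11A and SMIM11B, differed at 0 sites of the canonical transcript.

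The coding differences of the other pairs are shown as the 25 bases around each, since these sites are the ones at which a coding read can be told apart, with the differing bases in capitals (hg38, 5′ to 3′ along the transcript). Position 1 is the 5′ base of the canonical transcript, with the base of the first copy before the position and that of the second copy after it. CBS had C849T in exon 8 (chr21:43065228-43065252 and chr21:6456906-6456930), SIK1 had C1980T and C1984T in exon 13 (chr21:43417663-43417687 and chr21:6120574-6120598), and GATD3A had T32C in exon 1 (chr21:44133702-44133726 and chr21:5128326-5128350).
CBS: cctggctcactaCgacaccaccgct
CBSL: cctggctcactaTgacaccaccgct
SIK1: aggtgtgccaggCcccCgccagccg
SIK1B: aggtgtgccaggTcccTgccagccg
GATD3A: cggctgtgagggTcctggtggcctc
GATD3B: cggctgtgagggCcctggtggcctc
These are sites of the reference assembly, and which base the RNA of either cell line holds there was not analysed here.

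The libraries held between 12161091 and 22179601 expected counts. The replicate 3 libraries of 22Rv1 stood apart from the other replicates of their groups: the chi-square per gene between replicates, which is near 1 for sampling noise alone, was 44.4 and 37.7 against them with NC-mimic and 104 and 106 with the mimic, against 3.43 to 15.03 for the other pairs of replicates. All 9 luminal prostate markers, among them KLK3, had a mean over 1 CPM (counts scaled by library size) in every group, with a summed level of 6001 to 6409 CPM in LNCaP and 3224 to 3933 CPM in 22Rv1. The 11 markers of other cells summed to between 64.2 and 154 CPM, and KRT5, of basal cells, was at 0 in 3 of the 4 groups.

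The reads of a pair were divided within the pair. The summed expected counts of a pair were whole numbers, within 0.02, in 52 of 60 values over the 5 pairs and 12 libraries, while the counts of the second copy were whole in 6 of 60. The sums of U2AF1/U2AF1L5, CBS/CBSL and SIK1/SIK1B were whole in all 12 libraries each, that of GATD3A/GATD3B in 11 and that of SMIM11A/SMIM11B in 5. The fractions thus cancelled within the pair for all but 8 of the values.

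**Figure D1:**
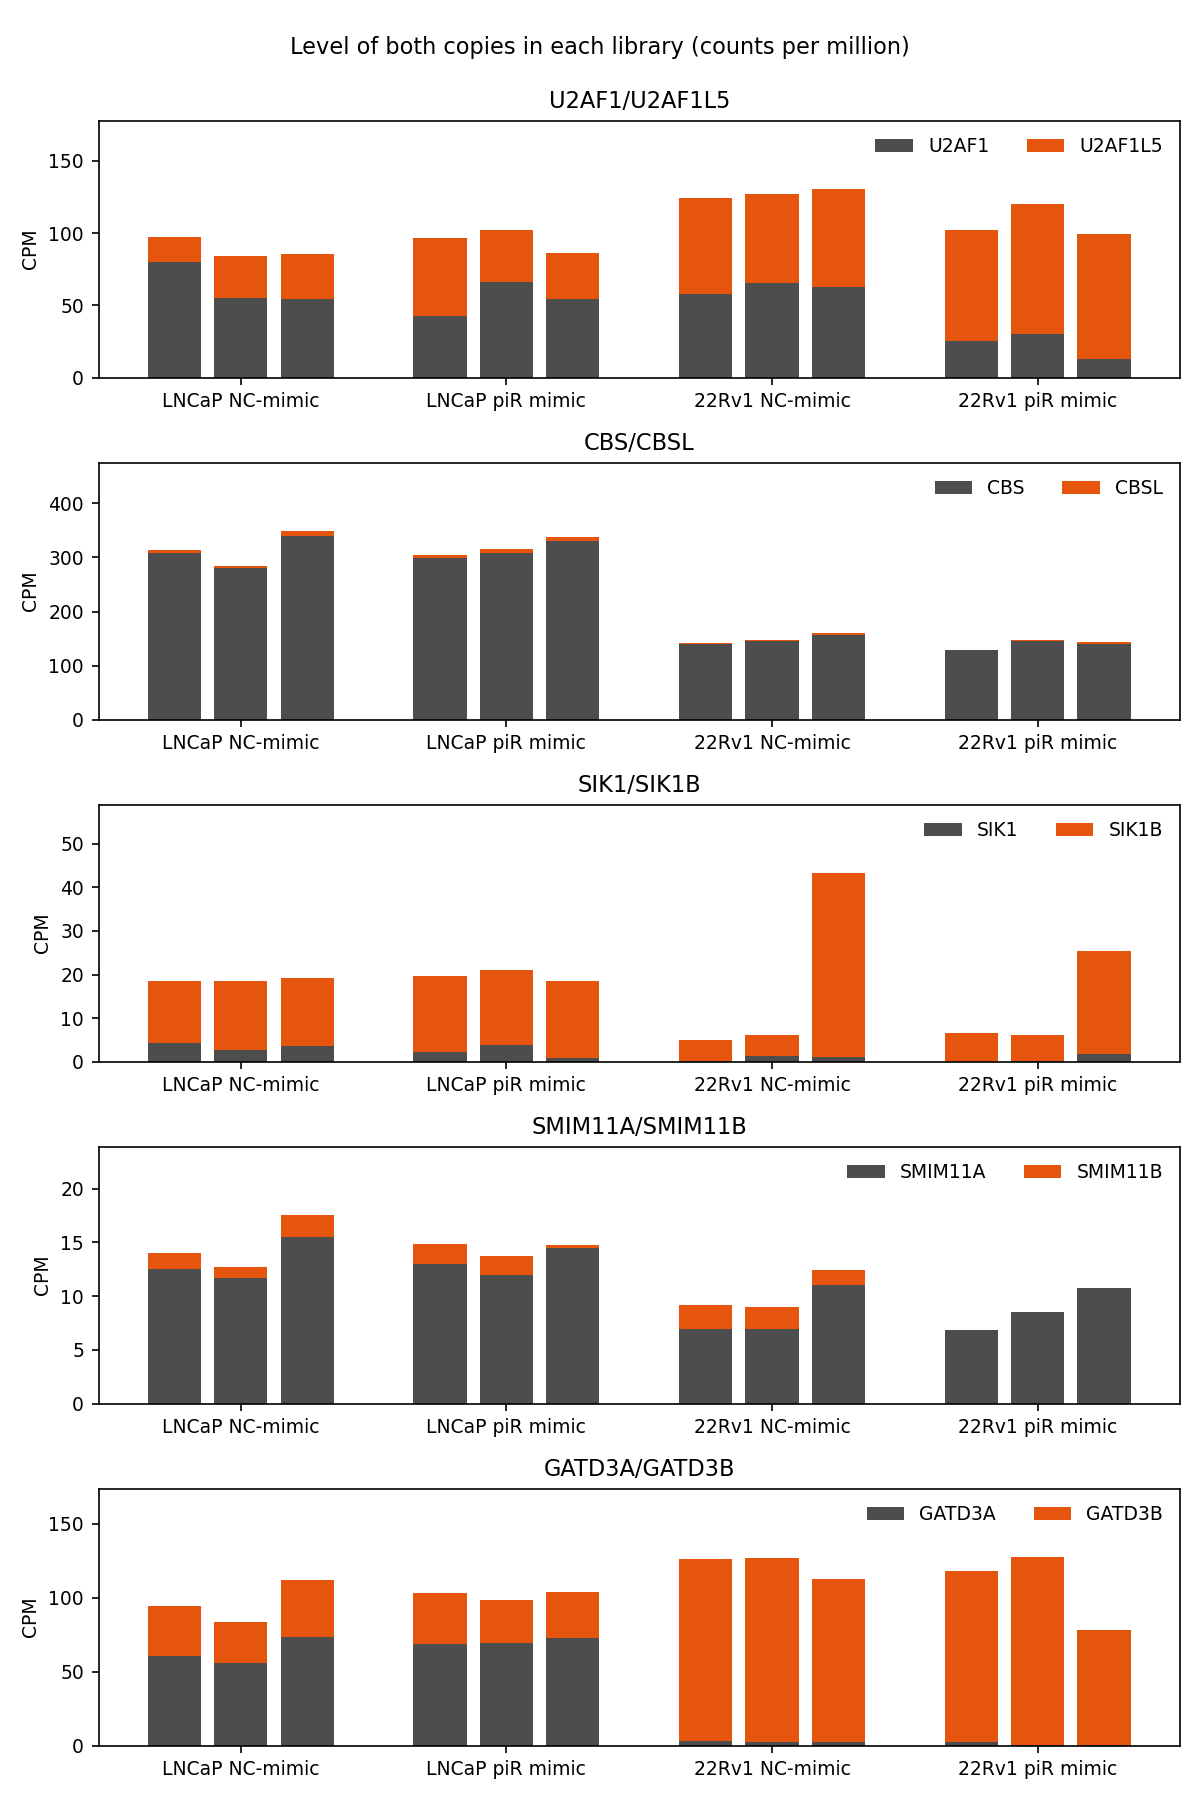
Level in CPM (vertical axis) of the first copy (grey) and the second copy (orange), stacked, in each of the 12 libraries, with replicates 1 to 3 from left to right in each group. The U2AF1 part is shorter in the 3 mimic libraries of 22Rv1 than in the other 9, SMIM11B is at 0 there, GATD3A is under 3 CPM in all 6 libraries of 22Rv1, and SIK1B is at 42.1 and 23.5 CPM in the replicate 3 libraries of 22Rv1.

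U2AF1 was lower with the mimic in 22Rv1, where it was at 57.7, 65.2 and 62.9 CPM in the NC-mimic libraries and at 25.5, 30.1 and 12.7 CPM in the mimic libraries. The groups did not overlap, which held for 8.78% of all genes tested in 22Rv1. U2AF1 fell by 1.44 on the log2 scale (SE 0.304, unadjusted p = 0.00184, adjusted p = 0.999, quasi-likelihood test of edgeR, adjusted by Benjamini-Hochberg). It thus met the thresholds of the study's rule for calling a gene, p under 0.05 before adjustment with a log2 fold change over 0.2 either way. The study applied this rule to DESeq2 tests with shrunken fold changes. Here, unless another test is named, the study's rule means these thresholds on edgeR values without such shrinkage. U2AF1 failed the adjustment over all genes. The rule was met by 1.48% of the 16898 genes tested in 22Rv1 and the adjusted threshold by 0%, or 0 genes, with 250 genes at an unadjusted p under 0.05. Without both replicate 3 libraries of 22Rv1, an alternative chosen after seeing the data, U2AF1 fell by 1.14 (adjusted p = 0.00817, edgeR). In that fit 4 of the 17101 genes tested passed the adjusted threshold.

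U2AF1L5 was higher in the same mimic libraries. It was at 66.7, 62.2 and 67.5 CPM with NC-mimic and at 77.1, 89.9 and 86.5 CPM with the mimic, again with no overlap. It rose by 0.36 on the log2 scale (SE 0.119, unadjusted p = 0.0177, adjusted p = 0.999, edgeR). In the same edgeR test the rise no longer met the study's rule without the NC-mimic library of replicate 1 (unadjusted p = 0.0528) or 2 (unadjusted p = 0.0701), or the mimic library of replicate 2 (unadjusted p = 0.0803), or with all 12 libraries in one fit (0.37, unadjusted p = 0.122).

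Added up, U2AF1/U2AF1L5 was at 124, 127 and 130 CPM with NC-mimic and at 102, 120.0 and 99.2 CPM with the mimic in 22Rv1. The 2 groups did not overlap, as was the case for 8.77% of all rows tested with the copies summed. The sum differed by −0.25 on the log2 scale (SE 0.125, unadjusted p = 0.0815, adjusted p = 0.999, edgeR) and did not meet the study's rule. The copies differed by −1.44 and 0.36, and that the difference of their sum lies between these follows from arithmetic.

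In LNCaP the division of U2AF1 reads varied among replicates of one group. U2AF1 was at 79.8, 55.4 and 54.2 CPM with NC-mimic and at 42.5, 66.5 and 54.5 CPM with the mimic, with a difference of −0.21 (SE 0.161, unadjusted p = 0.206, edgeR). U2AF1L5 was at 17.3, 28.9 and 31.1 CPM with NC-mimic and at 54.1, 35.6 and 31.6 CPM with the mimic. It rose by 0.65 on the log2 scale (SE 0.215, unadjusted p = 0.0103, adjusted p = 0.999, edgeR), and the nearest values of the 2 groups were 31.1 and 31.6 CPM, so that they did not overlap, as for 7.85% of all genes tested in LNCaP. The study's rule was met by 2.22% of the 16244 genes tested in LNCaP, and 0% passed the adjusted threshold, with 433 genes at an unadjusted p under 0.05. By DESeq2 with shrunken fold changes, 3 genes met the rule in LNCaP, and U2AF1L5 did not (0.048, unadjusted p = 0.0591).

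The U2AF1L5 rise in LNCaP rested on mimic replicate 1, the library with the highest value: without it the difference was 0.38 (unadjusted p = 0.0773, edgeR). Without NC-mimic replicate 3, CBSL (0.50) and GATD3A (0.28) met the study's rule beside it, and without mimic replicate 2, U2AF1 (−0.38) and SIK1 (−1.23) did. The sum was at 97.1, 84.3 and 85.4 CPM with NC-mimic and at 96.6, 102 and 86.1 CPM with the mimic. The groups overlapped, as did those of the other 4 sums in LNCaP, where 7.84% of all rows did not, and the sum differed by 0.09 (SE 0.0840, unadjusted p = 0.297, edgeR).

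The share of U2AF1L5 in the expected counts of its pair gives the division in 1 value per library. It was 53.6, 48.8 and 51.8% with NC-mimic in 22Rv1 and 75.2, 74.9 and 87.2% with the mimic, or 51.4% ± 2.42 against 79.1% ± 7.0 (SD, n = 3 each). The difference was 27.7 percentage points with no overlap (exact two-sided permutation test, p = 0.1, the smallest that 3 against 3 libraries allow, with 15 such comparisons made over the 5 pairs and so none able to pass an adjustment). Leaving out each library in turn gave differences of 23.6 to 29.8 points. In LNCaP the share was 29.5% ± 10.2 with NC-mimic and 42.5% ± 11.7 with the mimic (SD, n = 3 each), a difference of 13.0 points with overlapping groups (exact permutation p = 0.2). It was 6.23 points without mimic replicate 1, 7.13 points without NC-mimic replicate 1 and at most 16.8 points when another library was left out. Shares from TPM, which divide each copy by its own transcript length, were 29.6, 55.6 and 55.9% with NC-mimic and 79.4, 52.9 and 57.5% with the mimic in LNCaP, so that U2AF1L5 held the larger part in 5 of the 6 libraries by TPM and in 1 by counts.

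**Figure D2:**
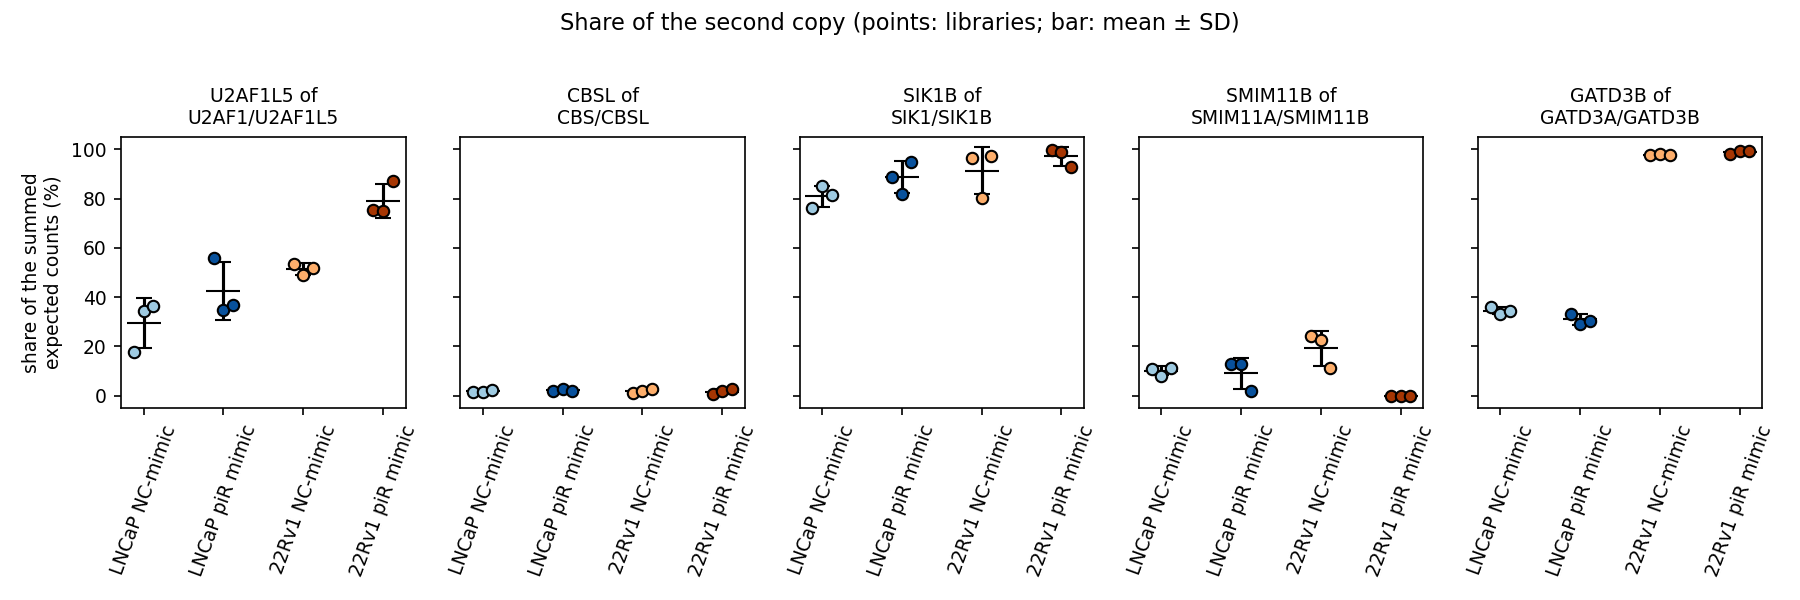
Share of the second copy in the summed expected counts of each pair (vertical axis, percent) by group, with points for libraries and bars for the mean and SD of 3 libraries. The U2AF1L5 share lies above 74% in the 3 mimic libraries of 22Rv1 and at or below 56.0% in the other 9, and the GATD3B share lies above 97% in 22Rv1 and below 37% in LNCaP.

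The tables also give the mean length of the transcripts assigned to a row, weighted by their abundance. For U2AF1 in 22Rv1 it was 1241 ± 120 bases with NC-mimic, over a range of 1112 to 1350, and 2648 ± 628 bases with the mimic, over a range of 2107 to 3336 (SD, n = 3 each; exact permutation p = 0.1). The groups did not overlap, which held for 9.16% of the 14013 genes tested in 22Rv1 whose length differed among these libraries. For U2AF1L5 in the same libraries it was 1118 ± 60.6 and 1077 ± 16.2 bases, with overlapping groups (exact permutation p = 0.4). The files list 11 transcripts of U2AF1 and 12 of U2AF1L5. In LNCaP the lengths of U2AF1 were 1559 ± 202 and 1838 ± 340 bases (SD, n = 3 each) and overlapped between NC-mimic and mimic. Of the 10 rows, the lengths of 2 did not overlap between NC-mimic and mimic in 22Rv1, U2AF1 and SMIM11A, and those of 2 did not in LNCaP, U2AF1L5 and SMIM11B, where the share over such genes was 9.91%.

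**Figure D3:**
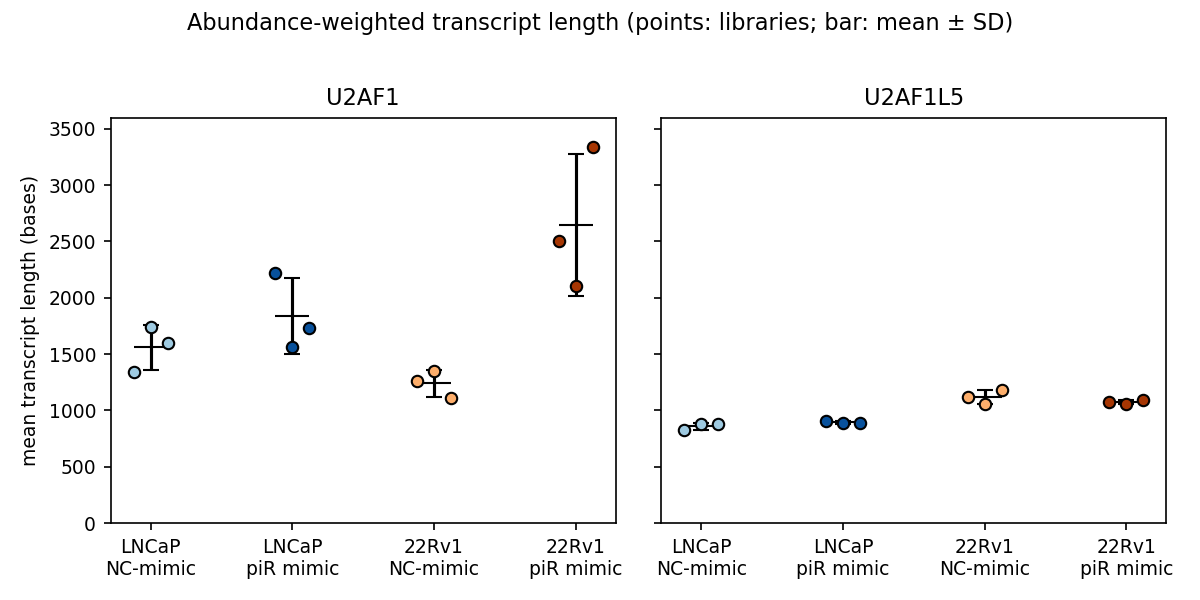
Abundance-weighted mean transcript length in bases (vertical axis, from 0) of U2AF1 and U2AF1L5 in each group, with points for libraries and bars for the mean and SD of 3 libraries. The U2AF1 lengths of the 3 mimic libraries of 22Rv1 lie between 2107 and 3336 bases, above the 1112 to 1350 bases of the NC-mimic libraries, and the U2AF1L5 lengths are at most 1178 bases in every library.

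Between the lines, with NC-mimic, U2AF1 itself differed by −0.04 (SE 0.159, adjusted p = 0.850, edgeR) while U2AF1L5 was higher in 22Rv1 by 1.337 (SE 0.207, adjusted p = 0.000817, edgeR). The sum was higher in 22Rv1 by 0.51 (SE 0.0918, adjusted p = 0.00177, edgeR), with 84.3 to 97.1 CPM in LNCaP and 124 to 130 CPM in 22Rv1. At an adjusted p under 0.05, 58.4% of the 17497 genes tested differed between the lines, so a difference of this kind was common. Of 20 further proteins of 3′ splice site recognition, 5 were higher and 3 lower in 22Rv1 at that threshold, with a median difference of 0.01 over the list and 0.01 over all genes. SF3B4, of the SF3b complex at the branch site, was higher by 0.85 (SE 0.0858), DDX39B, a helicase that binds U2AF2, by 0.85 (SE 0.0982) and SF3B5 by 0.43 (SE 0.113), and RBM39, a splicing factor related to U2AF2, was lower by 0.49 (difference −0.49, SE 0.115). With the mimic, 0 of the 20 met the study's rule in LNCaP and 0 in 22Rv1.

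GATD3A and GATD3B were divided differently in the 2 lines. With NC-mimic, GATD3A was at 60.5, 56.1 and 73.4 CPM in LNCaP and at 2.94, 2.42 and 2.77 CPM in 22Rv1. GATD3B was at 34.2, 27.7 and 38.4 CPM in LNCaP and at 123, 125 and 110 CPM in 22Rv1. Neither row overlapped between the lines, as was the case for 67.2% of all genes tested. GATD3A was lower in 22Rv1 by 4.54 on the log2 scale (difference −4.54, SE 0.169, adjusted p = 6.61e-07) and GATD3B higher by 1.83 (SE 0.136, adjusted p = 1.78e-05, edgeR).

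The GATD3A/GATD3B sum differed far less, with 94.7, 83.8 and 112 CPM in LNCaP and 126, 127 and 113 CPM in 22Rv1. It was higher in 22Rv1 by 0.33 (SE 0.122, adjusted p = 0.0486, edgeR), a call that was lost without NC-mimic replicate 1 (0.30) or 2 (0.22) of LNCaP and without NC-mimic replicate 1 (0.30) or 2 (0.29) of 22Rv1. It was also lost without a low-count filter (0.29, adjusted p = 0.0847, edgeR), in all 3 limma settings (0.22, adjusted p = 0.144 to 0.195) and with all 12 libraries in one fit (adjusted p = 0.110, edgeR). The GATD3B share was 34.5% ± 1.56 in LNCaP and 97.8% ± 0.292 in 22Rv1 (SD, n = 3 each), a difference of 63.2 percentage points, over 62.5 to 64.1 points when each library was left out (exact permutation p = 0.1, no overlap).

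With the mimic, the GATD3B share was 30.9% ± 2.13 in LNCaP, a difference of −3.58 points from the NC-mimic libraries, and 99.0% ± 0.894 in 22Rv1, a difference of 1.23 points (SD, n = 3 each; exact permutation p = 0.2 in both lines). GATD3A in 22Rv1 was at 2.40, 0.630 and 0.378 CPM with the mimic. The groups did not overlap, as for 8.78% of all genes tested in 22Rv1, but the nearest values were 2.40 and 2.42 CPM. GATD3A differed by −1.26 (SE 0.714, unadjusted p = 0.118, edgeR). With the replicate number as a block, it differed by −1.62 (unadjusted p = 0.0482, edgeR) and met the study's rule, as it did without mimic replicate 1 (−2.44, unadjusted p = 0.00603, edgeR). The levels with the mimic rest on 35.0, 11.3 and 5.84 expected counts. The sum differed by 0.08 in LNCaP (SE 0.0937, unadjusted p = 0.430, edgeR) and by −0.18 in 22Rv1 (SE 0.199, unadjusted p = 0.395, edgeR). Of the relatives of GATD3, PARK7 was lower in 22Rv1 than in LNCaP (difference −0.37, SE 0.108, adjusted p = 0.0181, edgeR) and GATD1 differed by 0.18 (SE 0.136, adjusted p = 0.281).

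SMIM11B was listed at 0 in all 3 mimic libraries of 22Rv1. It had 48.6, 31.2 and 17.0 expected counts in the NC-mimic libraries, or 2.21, 2.02 and 1.39 CPM. Against a floor of 3 counts over the group, it was at least 31.1-fold lower with the mimic (unadjusted p = 0.000437, adjusted p = 0.999, edgeR). SMIM11A, whose canonical transcript has 0 sites that differ from the copy, was at 6.93, 6.96 and 11.1 CPM with NC-mimic and at 6.87, 8.52 and 10.8 CPM with the mimic.

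The SMIM11A/SMIM11B sum was at 9.15, 8.97 and 12.5 CPM with NC-mimic and 6.87, 8.52 and 10.8 CPM with the mimic in 22Rv1. The groups overlapped, and the sum differed by −0.23 (SE 0.271, unadjusted p = 0.425, edgeR). The SMIM11B share in 22Rv1 was 24.2, 22.5 and 11.1% with NC-mimic and 0% in each mimic library, a difference of −19.3 percentage points with no overlap (exact permutation p = 0.1). In LNCaP the SMIM11B share was 10.1% ± 1.82 with NC-mimic and 9.13% ± 6.37 with the mimic (SD, n = 3 each), where mimic replicate 3 stood at 1.77% and the other two at 12.9 and 12.7%. The sum in LNCaP differed by −0.03 (SE 0.135, unadjusted p = 0.825, edgeR). Between the lines, SMIM11A was lower in 22Rv1 (difference −0.69, SE 0.250, adjusted p = 0.0440) and the sum differed by −0.55 (SE 0.215, adjusted p = 0.0574, edgeR). The SMIM11A call was lost without any 1 of the NC-mimic libraries (adjusted p = 0.0669 to 0.142, edgeR) other than replicate 3 of 22Rv1, without which it was −0.94 (adjusted p = 0.00114). Without that library, the sum differed by −0.71 with an adjusted p of 0.00505. The sum also passed the threshold by DESeq2 (−0.53, adjusted p = 0.0452), in all 3 limma settings (−0.63 to −0.66, adjusted p = 0.0251 to 0.0496) and with all 12 libraries in one fit (adjusted p = 0.0458, edgeR).

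CBS held almost all counts of its pair. The CBSL share lay between 0.683 and 2.65% over the 12 libraries, and its group means were 1.90% ± 0.454 and 2.18% ± 0.315 in LNCaP and 1.86% ± 0.846 and 1.67% ± 0.963 in 22Rv1, for NC-mimic and mimic in that order (SD, n = 3 each). All groups overlapped (exact permutation p = 0.4 in LNCaP, 0.7 in 22Rv1 and 1 between the lines). CBS was at 309, 280.4 and 340.1 CPM with NC-mimic in LNCaP and at 140.4, 145 and 156 CPM in 22Rv1. It was lower in 22Rv1 by 1.08 on the log2 scale (difference −1.08, SE 0.102, adjusted p = 5.87e-05, edgeR), and the sum gave the same difference of −1.08 (SE 0.105). CBSL differed by −1.12 (SE 0.453, adjusted p = 0.0629).

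With the mimic, the CBS/CBSL sum was at 305, 316 and 337 CPM in LNCaP and at 129, 148 and 144 CPM in 22Rv1. It differed from NC-mimic by 0.01 (SE 0.0766, unadjusted p = 0.853) and by −0.10 (SE 0.121, unadjusted p = 0.424, edgeR). Of 21 further genes of the methionine cycle, transsulfuration and glutathione entry, 18 were tested and 0 met the study's rule in either line. Between the lines, 4 were higher and 6 lower in 22Rv1 at an adjusted p under 0.05, which 58.4% of all genes tested met. The median difference was −0.15 against 0.01 for all genes. GCLC, of the first step of glutathione synthesis, was higher by 2.37 (SE 0.107) and MAT2B, which regulates methionine adenosyltransferase, by 0.65 (SE 0.0974). SQOR, which oxidises sulfide in mitochondria, was lower (difference −1.80, SE 0.275).

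SIK1B took most expected counts of its pair in all 12 libraries. By TPM its share was below 50% in LNCaP NC-mimic replicate 1 (39.1%) and 22Rv1 mimic replicate 3 (48.6%). Over counts, its share was 80.9% ± 4.33 and 88.6% ± 6.51 in LNCaP and 91.4% ± 9.68 and 97.1% ± 3.90 in 22Rv1, for NC-mimic and mimic in that order (SD, n = 3 each). The groups overlapped in all 3 comparisons (exact permutation p = 0.2 in LNCaP, 0.5 in 22Rv1 and 0.3 between the lines). The row named SIK1 had the lower count of the pair in every library.

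The SIK1/SIK1B sum was at 18.5, 18.4 and 19.1 CPM with NC-mimic and at 19.7, 20.96 and 18.4 CPM with the mimic in LNCaP. In 22Rv1 it was at 5.05, 6.13 and 43.2 CPM with NC-mimic and at 6.66, 6.07 and 25.4 CPM with the mimic. The high value of each group was its replicate 3, one of the libraries that stood apart. The sum differed between the lines by −0.07 (SE 0.722, adjusted p = 0.937, edgeR), and without NC-mimic replicate 3 of 22Rv1 it was lower in 22Rv1 by 1.76 (difference −1.76, SE 0.173, adjusted p = 3.03e-06). SIK1 alone was lower in 22Rv1 (difference −2.13, SE 0.624, adjusted p = 0.0184), a call that was lost without NC-mimic replicate 1 (adjusted p = 0.0717) or 3 (adjusted p = 0.0549) of LNCaP. It was also lost in all 3 limma settings (−0.85 to −1.35, adjusted p = 0.191 to 0.321) and with all 12 libraries in one fit (adjusted p = 0.119, edgeR). SIK1B alone differed by 0.17 (SE 0.758, adjusted p = 0.866, edgeR).

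With the mimic, the SIK1/SIK1B sum differed by 0.07 in LNCaP (SE 0.103, unadjusted p = 0.481) and by −0.52 in 22Rv1 (SE 0.925, unadjusted p = 0.588, edgeR). Without both replicate 3 libraries of 22Rv1 the latter was 0.20 (unadjusted p = 0.511). Of 23 further genes of LKB1, SIK and CREB signalling, 22 were tested in LNCaP and 23 in 22Rv1, and 0 met the study's rule with the mimic in either line. Between the lines, 10 were higher and 4 lower in 22Rv1 at an adjusted p under 0.05, which 58.4% of all genes tested met. The median difference was 0.21 against 0.01 for all genes. PRKACB, a catalytic subunit of protein kinase A, was lower (difference −5.36, SE 0.213), and PDE4D, which breaks down cAMP, was higher by 2.44 (SE 0.167). CRTC2, a coactivator that SIK kinases phosphorylate, was higher by 1.11 (SE 0.113), and HDAC5, another substrate of theirs, by 1.16 (SE 0.164).

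**Figure D4:**
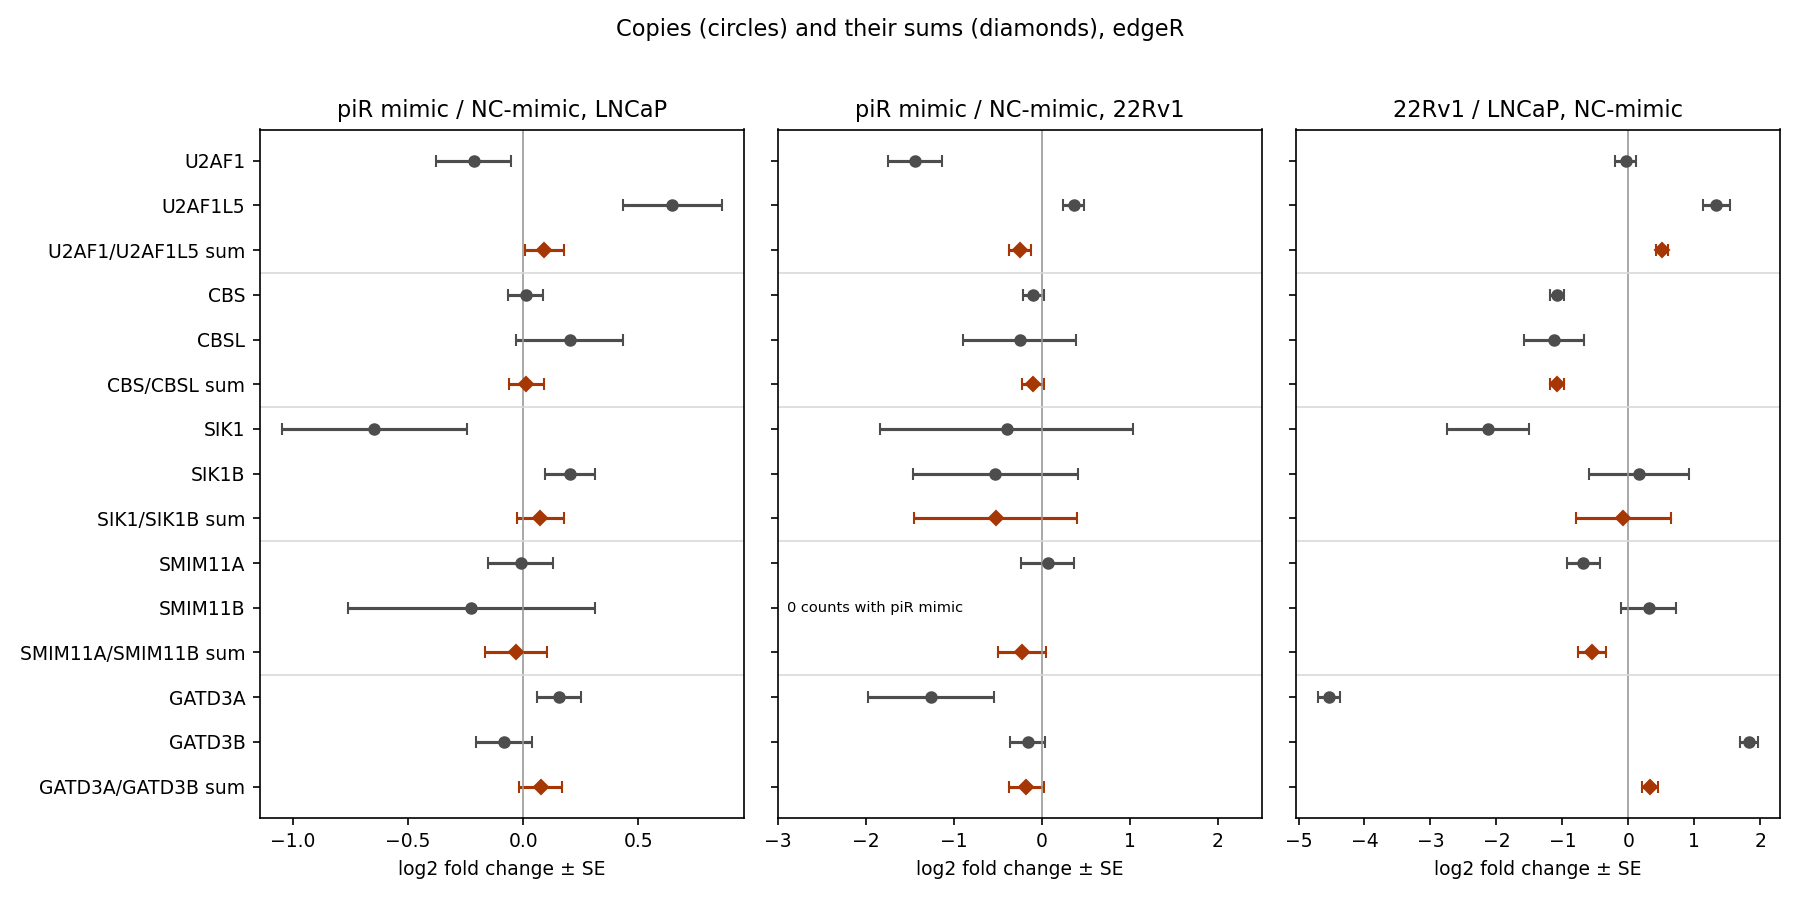
Log2 fold change (horizontal axis, a separate scale in each panel) with its SE from edgeR for each copy (circles) and each sum (diamonds), for the mimic in LNCaP, the mimic in 22Rv1, and 22Rv1 over LNCaP with NC-mimic. U2AF1 and U2AF1L5 lie on opposite sides of 0 in the first 2 panels, and GATD3A and GATD3B do so in the third. SMIM11B, with 0 counts in the mimic libraries of 22Rv1, is not drawn for the mimic in 22Rv1.

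All 10 rows passed the filter on low counts in each line and between the lines. Counted over them, the study's rule on edgeR values was met with the mimic by 1 row in LNCaP, U2AF1L5, and by 3 in 22Rv1, U2AF1, U2AF1L5 and SMIM11B. Over all genes with the copies apart, the rule was met by 2.22% in LNCaP and by 1.48% in 22Rv1. Counted over the 5 sums, it was met by 0 in LNCaP, against 2.22% of all rows, and by 0 in 22Rv1, against 1.46%. The 3 rows in 22Rv1 belong to 2 pairs and are not independent, since a read given to one copy is taken from the other. The median log2 difference over the 10 rows was 0.00 in LNCaP and −0.33 in 22Rv1, the latter also with SMIM11B at its bound, beside 0.00 and −0.01 over all genes. Between the lines, 6 of 10 rows and 3 of 5 sums passed the adjusted threshold, near the 58.4 and 58.5% of all rows that did.

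Whether the mimic effect itself differed between the lines was tested in a fit of all 12 libraries. The difference of effects, 22Rv1 minus LNCaP, was −1.23 for U2AF1 (SE 0.383, unadjusted p = 0.00762), −1.46 for GATD3A (SE 0.534, unadjusted p = 0.0184) and −0.34 for the U2AF1/U2AF1L5 sum (SE 0.147, unadjusted p = 0.0409), and SMIM11B, with its 0 counts, also met the study's rule (unadjusted p = 0.000285, edgeR). All adjusted p-values were 1.00, and 0% of all rows passed the adjusted threshold (610 rows with the copies apart had an unadjusted p under 0.05). The rule was met by 3.26% of all rows with the copies apart and by 3.21% with the copies summed. The U2AF1/U2AF1L5 sum differed by 0.09 in LNCaP and by −0.25 in 22Rv1, and the difference between these values failed the adjustment.

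Summed TPM give an order of the pairs, but each copy is divided by its own assigned length. They therefore depend on how the reads were divided, unlike summed counts. In LNCaP with NC-mimic, the summed level was 276 ± 16.5 TPM, which are scaled by length and library, for CBS/CBSL, 124 ± 14.5 for U2AF1/U2AF1L5, 112 ± 14.2 for GATD3A/GATD3B, 31.5 ± 4.78 for SMIM11A/SMIM11B and 7.53 ± 2.76 for SIK1/SIK1B. The neighbours U2AF1/U2AF1L5 and GATD3A/GATD3B did not differ beyond their SDs. In 22Rv1 with NC-mimic the order was U2AF1/U2AF1L5 at 178 ± 6.23 TPM, GATD3A/GATD3B at 130 ± 6.63, CBS/CBSL at 115 ± 3.66, SMIM11A/SMIM11B at 20.1 ± 4.84 and SIK1/SIK1B at 5.82 ± 6.65 (SD, n = 3 each). The last value holds the replicate 3 library, at 13.5 TPM. For SIK1/SIK1B in LNCaP with NC-mimic, the sum was 10.7, 6.51 and 5.42 TPM, against 18.5, 18.4 and 19.1 CPM. The assigned length of SIK1 in these libraries ranged from 1167 to 4747 bases.

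Of 26 chromosome 21 genes taken as single copy, 1 of 26 tested was lower with the mimic in LNCaP by the study's rule, PDE9A, a cGMP phosphodiesterase (difference −0.24, SE 0.0960, unadjusted p = 0.0264, edgeR), and 0 of 25 met it in 22Rv1. Between the lines, 6 were higher and 10 lower in 22Rv1 at an adjusted p under 0.05, which 58.4% of all genes tested met. PWP2, of ribosome biogenesis, led them, at 23.3 CPM in LNCaP and 0.297 CPM in 22Rv1. Whether reads of PWP2 or of others on this list were divided with a copy on the short arm was not tested. SLC37A1, a sugar phosphate transporter, was lower as well (difference −1.64, SE 0.150), while ATP5PO, of the ATP synthase, was higher by 0.84 (SE 0.105) and DONSON, a replication protein, by 1.68 (SE 0.227). Of 6 genes in 3 other pairs of copies on this chromosome, FAM243B was tested with the mimic. FAM243B was at 0.751 CPM with NC-mimic and 1.49 with the mimic in LNCaP, and at 0.297 and 1.24 CPM in 22Rv1 (unadjusted p = 0.0628 and 0.211, edgeR). Its copy FAM243A went the other way in LNCaP, with 0.554 CPM with NC-mimic and 0.0864 CPM with the mimic. The sum of this pair was not tested.

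The genes whose level followed each sum most closely within the lines were taken from 16619 candidates, by Pearson's r over the 12 libraries after the mean of each line was subtracted. They were GMPR (0.940), STIP1 (0.899) and C9orf78 (0.888) for U2AF1/U2AF1L5, and TRABD (0.919), FAM50A (0.913) and ASIC1 (0.905) for CBS/CBSL. MRPL2 (0.961), SYNGR1 (0.949) and LRRC20 (0.942) came nearest to SMIM11A/SMIM11B, and CKMT1B (0.983), CENPB (0.978) and STUB1 (0.973) to GATD3A/GATD3B. For SIK1/SIK1B they were TXNRD1 (0.993), CALCA (0.991) and CGB2 (0.988). The SIK1/SIK1B sum is at 43.2 and 25.4 CPM in the replicate 3 libraries of 22Rv1 against at most 20.96 CPM in the other 10. The values of r are a description over the same 12 libraries.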

How the data were processed

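For the alignment to hg38 the authors used STAR 2.7.1a, and for quantification RSEM v1.3.0. The submitters' notes also name DESeq2 1.34.0 and R 4.1.1. They deposited, per library, expected counts, which are estimated reads per gene without normalization, the TPM, which are scaled by effective length and library, and the mean transcript length. The annotation version is not given in the sources used here.

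Expected counts were rounded and tested with edgeR 4.0.16 in R 4.3.3 (TMM, filterByExpr, glmQLFit), each line apart, with the 10 rows as deposited and with each pair summed. CPM use the TMM library sizes. P-values were adjusted by Benjamini-Hochberg over all genes. Shares and lengths were compared with SciPy 1.17.1 by exact permutation. On simulated counts the fit was tested before use. Positions of genes are those of RefSeq on GRCh38, sequences are of hg38, and transcripts and gene types of GENCODE 44. Alternatives were DESeq2 1.42.0, limma 3.58.1 on log2(TPM + 1) and log2(TPM + 0.1), other filters, a replicate block, a fit of all libraries and leaving out each library.

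All members and sums are named. Lists are given as counts, with at most 4 genes named by the smallest p, and the 3 genes nearest to each sum. Some genes that these rules name are not reported here. Members and lists were chosen with earlier results of these data known. Deviations of same-numbered libraries correlated at 0.281, 0.229 and 0.422 in 22Rv1, so there the numbers were taken to pair libraries, from the values alone. In LNCaP (0.0358, 0.00327 and 0.246) they were not. The main tests of counts, shares and lengths were nonetheless unpaired in both lines, and the replicate block was run only as an alternative.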

Additional observations from a re-analysis of the deposited data

Results flagged for a closer look

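The GATD3B share was singled out because every mimic library of LNCaP lay below the mean of its NC-mimic libraries, with a difference of −3.58 percentage points, while every mimic library of 22Rv1 lay above its own, with a difference of 1.23 points. The shares with NC-mimic and mimic overlapped in both lines (exact permutation p = 0.2 in each). Whether the mimic's effect on this share differed between the lines was not tested. The difference of the mimic effects on the GATD3A level, −1.46 on the log2 scale (unadjusted p = 0.0184, adjusted p = 1.00, edgeR), failed the adjustment over all genes.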

How the results depend on the processing

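The calls of the 10 rows and 5 sums were recomputed under each alternative, and causes were not tested unless a value is given. With the mimic in LNCaP, the count of rows that met the study's rule was 1, and it was 3 without a low-count filter, 0 by DESeq2 with shrunken fold changes, 0 by limma on log2(TPM + 1) without a filter, and 0 to 3 when each library was left out, with 0 without mimic replicate 1 and 3 without NC-mimic replicate 3 or mimic replicate 2. Without a low-count filter, 1 row, U2AF1L5, passed the adjusted threshold in LNCaP. In 22Rv1, 1 row passed it by DESeq2 (SMIM11B, adjusted p = 0.00490), and 0 to 1 when libraries were left out, the 1 being U2AF1 without both replicate 3 libraries, an alternative chosen after seeing the data. The U2AF1 fall of 1.44 in 22Rv1 was −0.59 by shrunken DESeq2 (adjusted p = 0.0746) and −2.63 by limma on log2(TPM + 1), and it kept its direction and met the study's rule in each setting run. With all 12 libraries in one fit, 1 sum met the study's rule in 22Rv1, U2AF1/U2AF1L5 (−0.24, unadjusted p = 0.0374, edgeR), and without a filter 0 sums met it for the difference of effects between the lines. Between the lines, 2 to 5 sums passed the adjusted threshold, and 2 to 5 met the study's rule, when each library was left out, with 5 without replicate 3 of 22Rv1.

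Over all genes in LNCaP, 361 met the study's rule and 3 did by DESeq2 with shrunken fold changes, 891 without a filter, 578 by limma on log2(TPM + 1), 560 on log2(TPM + 0.1), 895 by limma without a filter and 168 with all 12 libraries in one fit, and 1008 without NC-mimic replicate 3. Over all genes in 22Rv1, 250 met it, and 532 did without a filter, 459, 449 and 772 by the 3 limma settings (321 higher and 138 lower in the first, against 135 and 115), 420 with the replicate block, 1232 with all 12 libraries and 781 without both replicate 3 libraries. For the difference of effects 610 met it, and 1035 did without a filter.

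The replicate block changed the call of GATD3A with the mimic in 22Rv1 (−1.62), and of CBSL (−1.19, adjusted p = 0.0317), SMIM11A/SMIM11B (−0.55, adjusted p = 0.0465) and GATD3A/GATD3B (0.33, adjusted p = 0.0730, edgeR) between the lines, where the replicate numbers were not taken to pair libraries (0.0202, 0.0122 and 0.127). CBSL also passed between the lines without a filter (adjusted p = 0.0426, edgeR), by DESeq2 (adjusted p = 0.0404) and by limma on log2(TPM + 1) (adjusted p = 0.0496). The replicate block gave U2AF1 −1.52 and U2AF1L5 0.36 in 22Rv1. It turned the direction of SIK1B between the lines (−0.60) and of the difference of effects for SIK1 (−0.46), neither of which was called, and it changed no other call of a row or sum.

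Directions that turned belonged to values that passed no threshold in the fits of the report. In limma on log2(TPM + 1), log2(TPM + 0.1) and without a filter, the differences were −0.0059, −0.0032 and −0.0059 for SIK1/SIK1B with the mimic in LNCaP, 0.10, 0.12 and 0.10 for SIK1/SIK1B in 22Rv1, −0.15, −0.16 and −0.15 for SMIM11A in 22Rv1, 0.33, 0.33 and 0.33 for U2AF1 between the lines and −0.39, −0.62 and −0.39 for SIK1B between the lines. SIK1 in 22Rv1 was at 0.28 without a filter and SIK1B at 0.072 on log2(TPM + 0.1). In percentage points, the CBSL share between the lines was 0.12 higher in 22Rv1 from TPM, and the SIK1B share in 22Rv1 differed by −0.062 from pooled counts. Without both replicate 3 libraries, SIK1B and SIK1/SIK1B with the mimic in 22Rv1 were at 0.38 and 0.20, and SIK1B between the lines was at −1.64.

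When each library was left out, the ranges that crossed 0 were as follows. With the mimic in LNCaP they were −0.054 to 0.085 for CBS, −0.053 to 0.093 for CBS/CBSL, −0.089 to 0.12 for SMIM11A, −0.59 to 0.26 for SMIM11B, −0.12 to 0.11 for SMIM11A/SMIM11B, −0.20 to 0.030 for GATD3B and −0.016 to 0.19 for GATD3A/GATD3B. With the mimic in 22Rv1 they were −0.72 to 0.16 for CBSL, −4.48 to 0.16 for SIK1, −1.43 to 1.29 for SIK1B, −1.50 to 1.17 for SIK1/SIK1B, −0.10 to 0.33 for SMIM11A, −0.31 to 0.027 for GATD3B and −0.32 to 0.012 for GATD3A/GATD3B. Between the lines they were −0.16 to 0.15 for U2AF1, −1.64 to 0.62 for SIK1B and −1.76 to 0.38 for SIK1/SIK1B. Shares that crossed 0 were CBSL in 22Rv1 (−0.662 to 0.300 points) and between the lines (−0.433 to 0.409) and SMIM11B in LNCaP (−2.80 to 2.75). SMIM11B with the mimic in 22Rv1 has no value at a minimum of 10 counts in every library, and SIK1 none without both replicate 3 libraries. Rows under 10 counts limit SIK1, SMIM11B and GATD3A in 22Rv1.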
